A study of Mus musculus with 4 samples.

Results

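Effector-memory-type CD4 T cells of the mouse ovary are described here, 109 cells among 4918 kept leukocytes and 6468 deposited barcodes. They were chosen from measured transcripts. A cell was kept when its hashtags named 1 mouse, it had at least 500 genes and under 10% mitochondrial UMIs (unique molecular identifiers, 1 per captured transcript). A kept cell entered the gate with at least 2 UMIs of Cd3d, Cd3e and Cd3g together, at most 1 of Cd79a and Ms4a1, at least 1 of Cd4, and 0 of Cd8a, Cd8b1 and Foxp3. The 6 effector-side genes Rora, Itgb1, S100a4, S100a6, Cxcr3 and Cxcr6 then had to reach at least as many UMIs as the 4 naive-side genes Lef1, Tcf7, Igfbp4 and Dapl1. The 318 cells that fell on the other side of this last step are called naive-type CD4 T cells and serve as the comparison from the same mice.

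Gonadotropin had been given to 5 female mice, and saline to the 5 females labelled untreated. All were C57BL/6J, 10 to 12 weeks old, and their ovaries were taken 48 h later. The hormone preparation and its dose are not given in the sources used here. Viable CD45+ cells of each mouse carried a hashtag antibody of their own, and each group went into 1 droplet library, so that treatment and library cannot be told apart. The gate held 62 cells of gonadotropin mice (10, 11, 13, 21 and 7 in mice 1 to 5) and 47 of untreated mice (11, 12, 4, 7 and 13). Their median depth was 7382 UMIs in the gonadotropin and 7373 UMIs in the untreated pool, and the summed depth per mouse ran from 27358 to 167334 UMIs.

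Effector-memory T cells are T cells that have met antigen before. They carry little of the lymph node homing receptor CCR7, move through peripheral tissue, and release cytokines quickly when they meet their antigen again. CD4 cells of this kind can follow several programmes, among them Th1 (T-bet and interferon gamma), Th2 (GATA3 and interleukin 4) and Th17 (interleukin 17). Gonadotropins drive follicle growth and ovulation, and leukocytes are known to enter the ovary around ovulation.

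The gate separated most cells by a wide distance. Effector-memory-type cells had a median of 22 effector-side UMIs and 4 naive-side UMIs, and naive-type cells had 0 and 19. The nearest cells inside the line included 7 against 7, 1 against 0 and 4 against 3 UMIs (effector side against naive side), and the nearest outside included 1 against 2, 2 against 3 and 12 against 13. In all, 10 effector-memory-type and 8 naive-type cells lay within 3 UMIs of it. The cells matched their label in the marker genes, which the rule used and which are given without a test: Itgb1 was found in 105 of the 109 cells, Rora in 81, S100a6 in 80, Cxcr3 in 65, S100a4 in 61 and Cxcr6 in 49. The T cell receptor constant gene Trbc2, outside the rule, had a UMI in 108 cells.

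**Figure D1:**
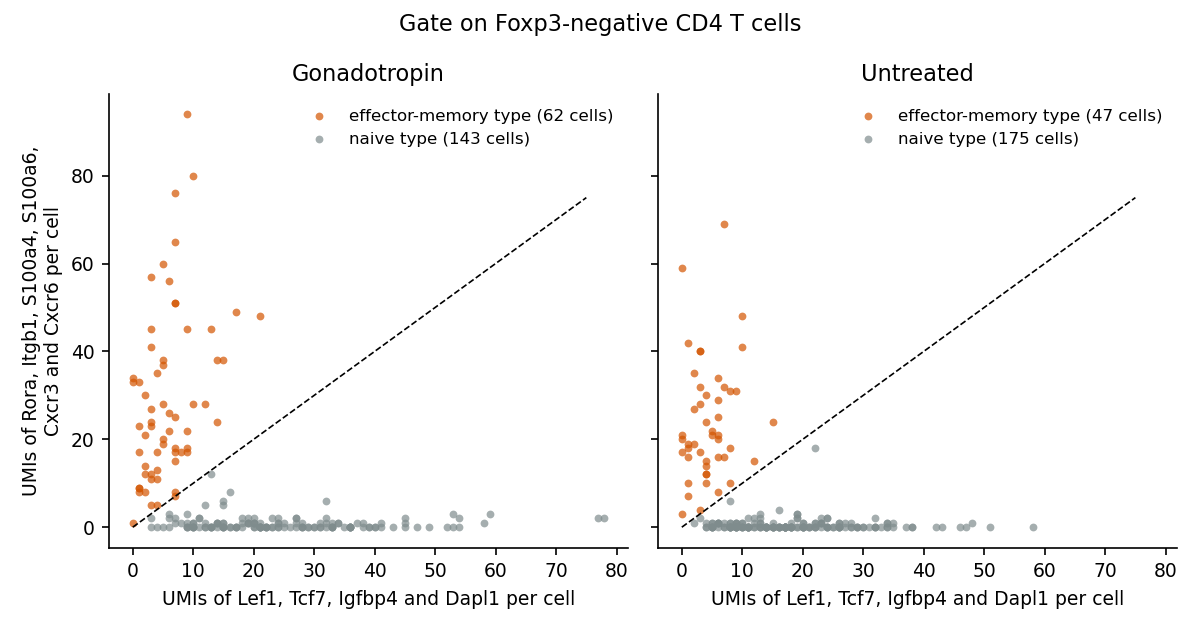
Each point is 1 Foxp3-negative CD4 T cell, with its UMIs of the 4 naive-side genes on the x axis and of the 6 effector-side genes on the y axis, for the gonadotropin pool on the left and the untreated pool on the right. The dashed line is the gate, with 62 and 47 effector-memory-type cells on or above it, and few cells of either kind lie near it.

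Markers of other cell types ranged from 0 to a UMI in most cells. The 5 stroma and granulosa markers (Col1a1, Dcn, Amh, Inha, Foxl2) were at 0 in both pools, as were the macrophage gene Csf1r, the neutrophil gene Csf3r and the NK cell gene Ncr1. The macrophage genes C1qa and C1qb had a UMI in 2 of 62 cells of gonadotropin and 1 of 47 of untreated mice. For the neutrophil genes S100a8 and S100a9 these counts were 0 of 62 and 2 of 47. The B cell marker Cd79b stood at 0 to 22.6 CPM (UMIs scaled to the same total for every mouse) in gonadotropin mice and 0 to 9.03 CPM in untreated mice. The abundant B cell transcripts Ighm and Cd74 had a UMI in 55 and 21 of the 109 cells (50.5 and 19.3%), against 57.5 and 11.01% of naive-type cells. The myeloid transcripts Lyz2 and Apoe were found in 12 and 9 of 62 cells of gonadotropin mice, and in 1 and 1 of 47 cells of untreated mice. The NK cell genes Klrb1c, Klre1 and Gzma, summed with Ncr1, were found in 17 of 62 cells of gonadotropin mice and 7 of 47 cells of untreated mice. UMIs of gamma-delta T cell, NKT cell or NK cell genes (Trdc, the 3 Tcrg-C genes, Zbtb16, Klrb1c, Tyrobp, Fcer1g) were found in 30 cells, 18 of gonadotropin and 12 of untreated mice, and these are called innate-like cells below. A single UMI was enough for this label, and 31 of 318 naive-type cells (9.75%) also had one, so some labelled cells may be background. Of the 30 cells, 16 had Zbtb16 and 11 had both Zbtb16 and Klrb1c. The regulatory T cell genes Il2ra, Ctla4 and Ikzf2, which the rule did not use, had a UMI in 31 of 62 cells of gonadotropin mice and 36 of 47 cells of untreated mice. Haemoglobin transcripts were found in 18 of 62 cells of gonadotropin mice and 2 of 47 of untreated mice. The part of the myeloid, NK cell, regulatory and haemoglobin transcripts in the results below was not tested. Scrublet called none of the 109 cells a doublet, 4 barcode sequences occurred in both pools, and 1 of those was in the gate.

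Genes outside the rule gave the cells a memory-type profile, and the Th1 set was found most often of the helper sets given below. The values that follow describe the gate and carry no test, because the cells were sorted by their own transcripts, and genes that travel with the rule's genes had to differ. The chemokine gene Ccl5 averaged 1106 ± 578 CPM in effector-memory-type cells and 2.96 ± 3.19 CPM in naive-type cells (SD, n = 10 mice). Tbx21, which encodes the Th1 master regulator T-bet, averaged 138 ± 65.8 CPM against 1.21 ± 2.66 CPM, and both genes were higher in the effector-memory-type cells of all 10 mice. The receptor genes Il18rap and Il12rb2, through which interleukins 18 and 12 raise interferon gamma, averaged 124 ± 54.7 and 117 ± 115 CPM in effector-memory-type cells, against 0.864 ± 1.49 and 4.29 ± 3.75 CPM in naive-type cells.

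The receptor genes Ccr2, Cd44 and Il2rb averaged higher than in naive-type cells, Ccr7 averaged lower, and Il7r was near equal. Ccr2, which follows inflammatory chemokines, averaged 114 ± 69.1 CPM in effector-memory-type and 0.641 ± 1.43 CPM in naive-type cells. Cd44, the classical marker of antigen experience, averaged 296 ± 63.7 against 33.9 ± 21.8 CPM, and Il2rb, a chain of the interleukin 2 and 15 receptors, 352 ± 117 against 14.5 ± 12.1 CPM. Ccr7 averaged 58.4 ± 42.7 CPM in effector-memory-type cells, against 272 ± 39.5 CPM in naive-type cells. Bach2, a repressor that guards the naive state, averaged 328 ± 108 against 1212 ± 219 CPM, and both genes were lower in the effector-memory-type cells of all 10 mice. Il7r, the survival receptor that naive and memory cells share, averaged 1027 ± 226 against 1050 ± 187 CPM. The resident-memory integrin gene Itgae had a UMI in 0 of 109 cells, so up to 2.75% of such cells could carry a UMI, which does not bound how many express it, and Itga1 had one in 24 cells.

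**Figure D2:**
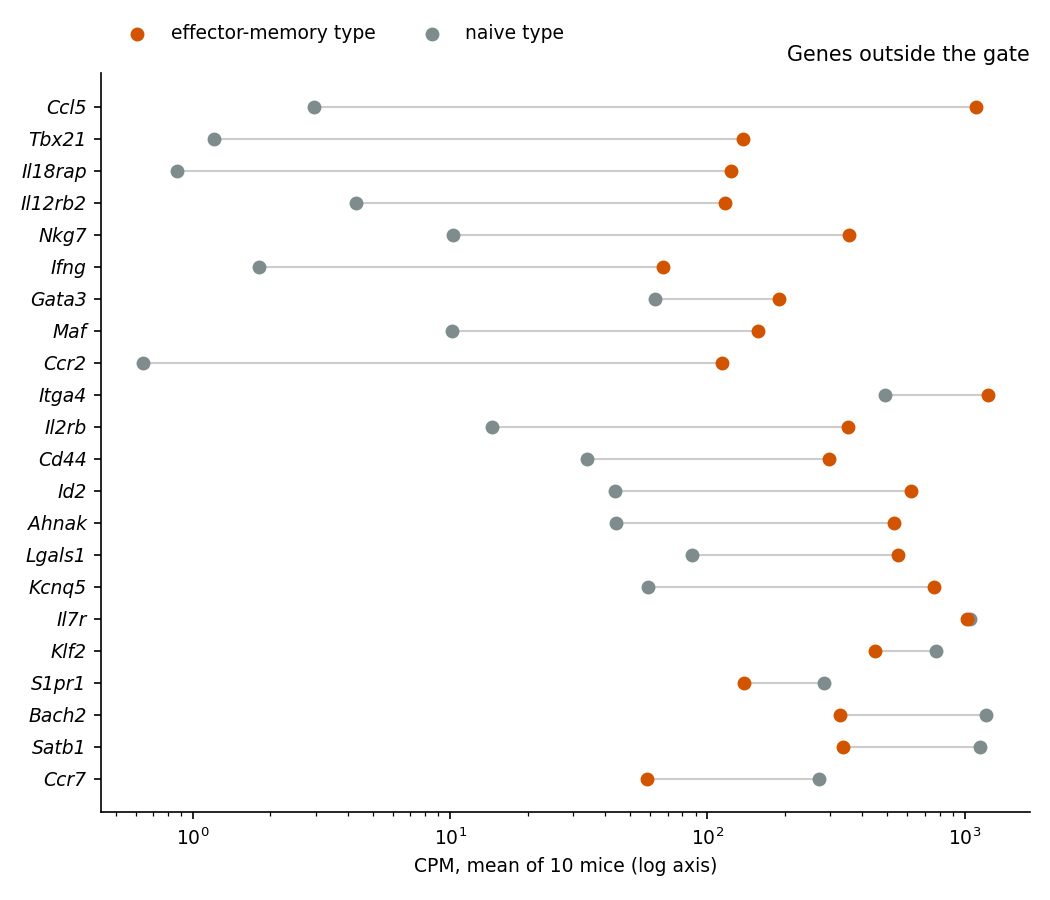
Mean CPM over 10 mice (log axis) of 22 genes that the gate did not use, with effector-memory-type cells in orange and naive-type cells in grey. Ccl5, Ccr2 and Il18rap lie furthest to the right of their naive-type values, Il7r is near equal, and Ccr7 and Bach2 lie to the left.

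The Th1 programme was found in most of these cells and the Th17 and Tfh programmes in few. At least 1 UMI of Tbx21, Ifng, Il12rb2 or Il18rap was found in 74 of 109 cells (67.9%, 95% Clopper-Pearson interval 58.3 to 76.5), 43 of 62 in gonadotropin mice and 31 of 47 in untreated mice. Naive-type cells, which should lack these transcripts, had 15 of 318 (4.72%) at a median depth of 7873 UMIs, against 7373 UMIs in effector-memory-type cells. The Th2 genes Il1rl1, Il4, Il5, Il13 or Il17rb were found in 18 cells (16.5%, interval 10.1 to 24.8), of which 11 had Il4, and in 2.20% of naive-type cells. The Th17 set (Il17a, Il17f, Il22, Il23r, Ccr6) was found in 5 cells, 4 of gonadotropin and 1 of untreated mice. The Tfh set (Cxcr5, Il21, Ascl2) was found in 10 cells (9.17%), all through Cxcr5, against 6.60% of naive-type cells, a background share that lies within its interval of 4.49 to 16.2%. The sets overlapped and do not mark separate cells. A UMI of the Th1 set was also found in 15 of the 18 Th2 cells, 3 of the 5 Th17 cells and 1 of the 10 Tfh cells. The same held for 26 of the 30 innate-like cells, and for all 16 cells with Zbtb16. In 20 cells, 10 of each pool, none of these sets nor the innate-like set was found. Intervals here cover counting error only.

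Cytotoxic and cytokine transcripts ranged from a few cells to over 50% of them. Nkg7, a granule protein gene, had a UMI in 61 cells (56.0%, against 0.629% of naive-type cells). Zbtb16, whose protein PLZF marks innate-like T cells, was found in 16 cells (14.7%, against 0.629% of naive-type cells). Ifng was found in 31 cells (28.4%), Tnf in 29, Xcl1 in 18, Gzma in 11, Gzmk in 8, Il2 in 7 and Gzmb in 6, all 6 from gonadotropin mice. Nr3c1, the glucocorticoid receptor gene, was found in 92 cells and averaged 461 ± 143 CPM, against 183 ± 51.9 CPM in naive-type cells, higher in all 10 mice. The progesterone receptor gene Pgr and the prolactin receptor gene Prlr had 0 UMIs in the 109 cells, which likewise bounds the cells with a UMI and not the cells that express them.

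Ccl5 divided the gate. It was found in 48 cells, whose median depth was 7763 UMIs, and not in 61, whose median was 6859 UMIs. Tbx21 was found in 66.7% of the Ccl5-positive and 27.9% of the Ccl5-negative cells, Nkg7 in 89.6% and 29.5%, and Ifng in 41.7% and 18.0%. Maf, a factor of Th2, Tfh and regulatory cells, went the other way with 41.7% and 65.6%, as did Ikzf2, the Helios gene, with 25.0% and 49.2%, and Ccr7 with 10.4% and 37.7%. Gata3, the Th2 regulator gene, did not follow the split, with 58.3% of the Ccl5-positive and 59.0% of the Ccl5-negative cells. Kcnq5 was found in 47.9% and 55.7%, and Zbtb16 in 18.8% and 11.5%. The deeper cells were the Ccl5-positive ones, and these shares are descriptive.

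The first comparison was of abundance. Effector-memory-type cells made up 1.78, 2.91, 4.48, 2.54 and 1.92% of the kept cells in gonadotropin mice 1 to 5, and 2.18, 1.85, 1.26, 2.36 and 1.79% in untreated mice 1 to 5. The means were 2.73 ± 1.08% and 1.89 ± 0.42% (SD, n = 5 each), and the groups overlapped (difference 0.838 percentage points, exact two-sided permutation p = 0.127). Among Foxp3-negative CD4 T cells the shares were 25.0, 28.2, 43.3, 28.8 and 30.4% in gonadotropin mice, and 15.9, 30, 12.9, 26.9 and 23.2% in untreated mice. The mean difference was 9.35 percentage points (exact p = 0.0714), and adjusted over both shares the permutation p was 0.127 for each, where the smallest p that the assignments of 5 against 5 mice allow is 0.00794. A difference in abundance was thus not shown. Without untreated mouse 2 the second difference was 11.4 points with an adjusted permutation p of 0.0476, and without gonadotropin mouse 3 the first was 0.399 points. A share depends on all other cells of the denominator, so gain of these cells and loss of others cannot be told apart.

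**Figure D3:**
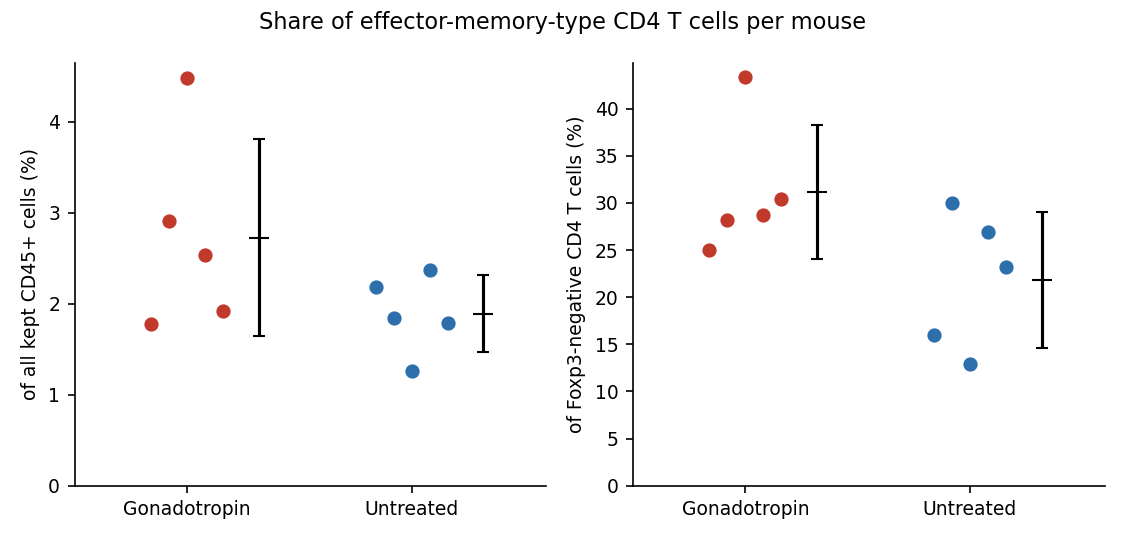
Each point is 1 mouse, with the percentage of effector-memory-type cells among all kept CD45+ cells on the left and among Foxp3-negative CD4 T cells on the right, gonadotropin mice left of untreated mice. Bars give the mean and SD of 5 mice, and the groups overlap in both panels.

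The second comparison asked which transcripts differed inside the gate. UMIs were summed per mouse for mice with at least 10 such cells, which left gonadotropin mice 1 to 4 and untreated mice 1, 2 and 5. Outside the genes of the rule, 1993 genes were tested, and 3 passed an adjusted p of 0.05 (0.151% of those tested), with 168 at an unadjusted p under 0.05. Ccl5 and the ribosomal protein gene Rps12 rose after gonadotropin (2 genes, 0.1%) and the potassium channel gene Kcnq5 fell (1 gene, 0.0502%). With RLE size factors in place of TMM, and with DESeq2, 1 gene rose and 1 fell, since Rps12 no longer passed. The mice of the groups did not overlap in 185 of the 1993 genes (9.28%).

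Ccl5 (chromosome 11, 83525778 to 83530518 of GRCm38.p6) encodes a chemokine that memory T cells store and release to draw in further leukocytes. It stood at 1818, 1151, 1460 and 1924 CPM in gonadotropin mice 1 to 4, and at 596, 873 and 496 CPM in untreated mice 1, 2 and 5. The means were 1588 ± 353 and 655 ± 195 CPM (SD, n = 4 and 3), and the log2 fold change was 1.33 ± 0.21 (SE; edgeR quasi-likelihood test, Benjamini-Hochberg adjusted p = 0.00860). All 4 gonadotropin mice lay above all 3 untreated mice. Of the mice with fewer cells, gonadotropin mouse 5 had 768 CPM and untreated mouse 4 had 1649 CPM, each in the range of the other group, and untreated mouse 3 had 329 CPM. With all 10 mice in the fit the log2 fold change was 0.93 and the adjusted p 0.347.

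Ccl5 was found in 31 of 62 cells of gonadotropin mice and 17 of 47 cells of untreated mice, with a mean of 24.7 and 15.9 UMIs in the positive cells. A single cell of gonadotropin mouse 4 held 208 of the 1035 Ccl5 UMIs (20.1%). Without that cell the mean in the positive cells of gonadotropin mice was 18.6 UMIs, the log2 fold change was 1.01 and the adjusted p 0.351. In naive-type cells Ccl5 averaged 2.60 ± 3.84 CPM in gonadotropin and 3.32 ± 2.79 CPM in untreated mice (SD, n = 5 each). CD8 T cells on the effector side of the same gate averaged 9780 ± 2942 CPM in gonadotropin and 8707 ± 5556 CPM in untreated mice.

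Kcnq5 (chromosome 1, 21398399 to 21962650) encodes a voltage-gated potassium channel best known from neurons. It stood at 420, 262, 254 and 496 CPM in gonadotropin mice 1 to 4, and at 997, 1129 and 812 CPM in untreated mice 1, 2 and 5. The means were 358 ± 120 and 979 ± 159 CPM, and it fell by 1.39 ± 0.24 on the log2 scale (adjusted p = 0.0143). The mice left out of the fit lay on the same side as their groups, at 564 CPM in gonadotropin mouse 5, and at 950 and 1740 CPM in untreated mice 3 and 4, so all 5 gonadotropin mice were below all 5 untreated mice. With all 10 mice the log2 fold change was -1.48 (adjusted p = 0.00494). Naive-type cells held far less, a median of 108 CPM in gonadotropin and 25.5 CPM in untreated mice.

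Most Kcnq5 transcripts came from the innate-like minority of the gate. The 18 innate-like cells of gonadotropin mice held 60.6% of that pool's Kcnq5 UMIs, and the 12 of untreated mice held 75.2%. Summed over the pool, innate-like cells had 724 CPM in gonadotropin and 2324 CPM in untreated mice, and the remaining cells had 231 CPM in gonadotropin and 399 CPM in untreated mice. Zbtb16 was found in 24.6% of the 57 Kcnq5-positive cells and in 3.85% of the 52 negative ones, at median depths of 7498 and 7334 UMIs. With the innate-like cells left out and all mice kept, Kcnq5 had a log2 fold change of -0.76 (adjusted p = 0.731), and 0 of 883 genes passed by edgeR, with 61 at an unadjusted p under 0.05. Ccl5 had a log2 fold change of 1.28 in that fit (adjusted p = 0.604), against 0.93 with all 10 mice and all cells. Whether innate-like cells changed in their own Kcnq5 level was not tested.

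Rps12 (chromosome 10, 23785183 to 23787383) encodes a protein of the small ribosomal subunit. It stood at 3895, 4261, 4008 and 3376 CPM in gonadotropin mice 1 to 4, and at 2867, 2572 and 2726 CPM in untreated mice 1, 2 and 5. The log2 fold change was 0.54 ± 0.11 (adjusted p = 0.0462), with 3002 CPM in gonadotropin mouse 5, and 2339 and 2237 CPM in untreated mice 3 and 4, so that all 5 gonadotropin mice were above all 5 untreated mice. It kept its call with all 10 mice (log2 fold change 0.55, adjusted p = 0.0252) but lost it without any 1 of the 7 mice, where the values ran from 0.49 to 0.61. After each cell had been thinned to 2000 UMIs its log2 fold change was 0.21 (adjusted p = 0.802).

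**Figure D4:**
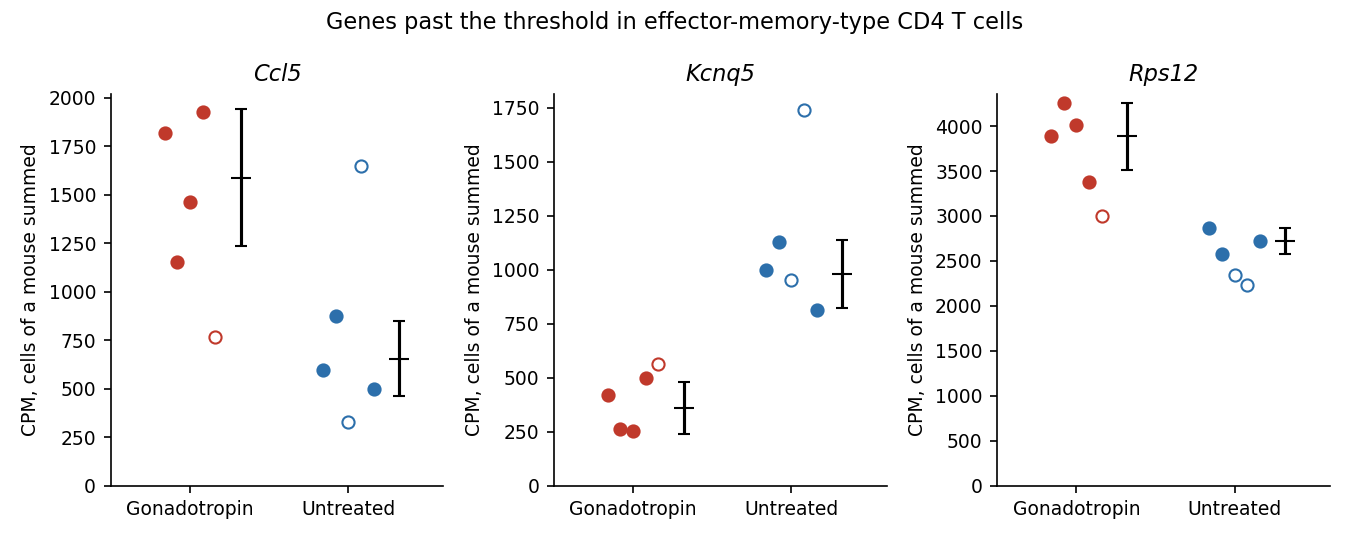
CPM in the summed effector-memory-type cells of each mouse for Ccl5, Kcnq5 and Rps12, gonadotropin left of untreated. Filled points are mice in the fit and open points mice with fewer than 10 cells, and bars give the mean and SD of the filled points; open points of Ccl5 fall into the range of the other group, those of Kcnq5 and Rps12 do not.

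The calls rested on few mice. Leaving out 1 mouse at a time gave 0 to 4 called genes: 0 without untreated mouse 1 or untreated mouse 5, 1 without gonadotropin mouse 2, 3 or 4, 2 without gonadotropin mouse 1, and 4 without untreated mouse 2. Counts were also simulated at the depths of the same mice, with the same fixed dispersion for every gene, which was not estimated from these data. Among 2005 genes the fit recovered 13% of those changed 2-fold and 75.5% of those changed 4-fold. Changes of the smaller size were mostly missed there, and recovery in the real counts may differ.

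Read by programme, the testable Th1 and memory genes had mostly positive values, and Ccl5 was the 1 member past the threshold among the gene lists other than the ribosomal one. All 6 Th1 genes that could be tested had positive log2 fold changes, with a median of 0.32 against 0.01 over all 1993 genes. They were Ccl5, Tbx21 (0.36), Il18r1 (0.33), Runx3 (0.32), Il18rap (0.28) and Stat4 (0.15). Ifng was not among them. It was found in 10 to 30.8% of the cells of each gonadotropin mouse and in 18.2 to 57.1% of those of each untreated mouse. Of the memory and cytoskeleton genes, 13 of 17 were positive (median 0.32), led by the Ly6 antigen gene Ly6c2 (1.26 ± 0.57, adjusted p = 0.559), the galectin gene Lgals1 (0.76) and Crip1 (0.74). Filters on low counts set which members could be tested, so these counts are no measure of the whole lists. Among all 1993 genes, 1029 were positive.

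Genes of the other helper programmes and of activation went both ways, and none passed the threshold. Maf stood at 93.6 ± 16.4 CPM in gonadotropin mice and 262 ± 106 CPM in untreated mice, with no overlap of the 7 mice (log2 fold change -1.41 ± 0.32, adjusted p = 0.111). The mice left out of the fit went the other way, with 248 CPM in gonadotropin mouse 5, and 73.1 and 90.4 CPM in untreated mice 3 and 4. The Th2 regulator Gata3 had -0.01. Zfp36l1, whose protein degrades AU-rich transcripts, averaged 115 ± 37.8 CPM in gonadotropin mice and 280 ± 64.6 CPM in untreated mice, again without overlap of the 7 (-1.26 ± 0.30, adjusted p = 0.116), but gonadotropin mouse 5 had 384 CPM, above every untreated mouse. Ccr2 averaged 179 ± 56.1 against 73.4 ± 23.9 CPM, with a log2 fold change of 1.24 ± 0.38 and an adjusted p of 0.377, and gonadotropin mouse 5, left out of the fit, had 22.6 CPM. Of 12 T cell activation genes 5 were positive (median -0.24), and the early activation antigen gene Cd69 had 0.76 (adjusted p = 0.674). Of 12 early response genes 5 were positive (median -0.13), with Jun at 1.45 ± 0.43 (adjusted p = 0.377), Fos at -0.27 and Junb at -0.40. Of 12 naive and recirculation genes 4 were positive (median -0.11), of 9 heat shock genes 4 (median -0.04), of 5 NF-kB genes 2 (median -0.05), of 6 growth genes 2 (median -0.17) and of 8 chemokine receptor and integrin genes 5 (median 0.23). Of 11 mitochondrially encoded genes 1 was positive (median -0.15).

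Lists with at most 4 testable genes are given by their members' medians. These were -0.71 for Th2 (2 genes), -0.09 for Tfh (2), -0.87 for regulatory T cell genes (2, Ikzf2 and Nrp1), 0.08 for cytokines (2), 0.33 for glucocorticoid response (2) and 0.19 for type I interferon (4 genes). The single testable genes of cholesterol synthesis (Srebf2), cell division (Hmgb2), the NK and innate-like list (Nkg7) and the B cell list (Ighm) had -0.19, -0.47, 0.25 and -0.06. Members of the Th17, myeloid and erythrocyte lists were too low to test.

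Ribosomal protein genes, whose products build the ribosome, differed in opposite directions in the 2 kinds of CD4 T cell. The family was noticed in these data and is therefore described without a test of its own. They made up 21.5, 23.5, 22.1, 22.2 and 21.0% of the UMIs of effector-memory-type cells in gonadotropin mice 1 to 5, and 21.4, 19.8, 20.1, 18.3 and 18.8% in untreated mice 1 to 5. The means were 22.0 ± 0.95% and 19.7 ± 1.21% (SD, n = 5 each), and 1 untreated mouse lay within the gonadotropin range. In naive-type cells the order was the other way round, with 30.6 ± 2.03% in gonadotropin and 33.2 ± 1.56% in untreated mice. When each cell was weighted equally, the effector-memory-type shares were 21.1 ± 0.93% in gonadotropin and 19.8 ± 1.57% in untreated mice, and these groups overlapped more.

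**Figure D5:**
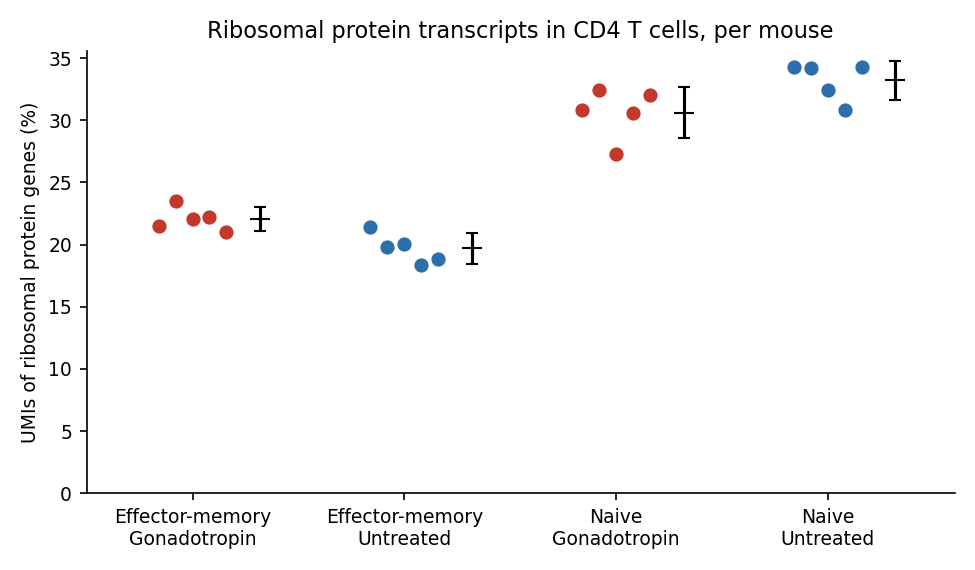
Percentage of UMIs from ribosomal protein genes in each mouse, for effector-memory-type cells on the left and naive-type cells on the right, gonadotropin before untreated in each pair; bars give the mean and SD of 5 mice. The gonadotropin values average above the untreated ones in effector-memory-type cells (22.0 and 19.7%) and below them in naive-type cells (30.6 and 33.2%).

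Gene by gene, 77 of 80 ribosomal protein genes tested had a positive log2 fold change in effector-memory-type cells (median 0.20) and 9 of 82 in naive-type cells (median -0.18). In effector-memory-type cells the mice of the groups did not overlap in 20 of the 80, against 9.28% of all genes. The positive count stayed at 77 with all 10 mice and when library sizes were computed without these genes, and was 65 of 79 without the innate-like cells. It was 49 of 79 (median 0.06) after each cell had been thinned to 2000 UMIs, which gives every cell the same weight. The thinned fit held 353 genes, against 2005 in the main one, so its scaling also rested on fewer genes.

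The third comparison tested whether the response to gonadotropin differed between effector-memory-type and naive-type cells of the same mice. A positive interaction means that the log2 fold change of gonadotropin over untreated was higher in effector-memory-type cells. Of 3451 genes, 43 passed an adjusted p of 0.05 (1.25%), 37 of them positive and 6 negative. Ribosomal protein genes were 34 of the 37, with interactions of 0.47 to 0.92 (median 0.57), and all 81 genes of the family had a positive value (median 0.49). Of the Th1 genes 3 of 9 were positive (median -0.22), and of the memory and cytoskeleton genes 15 of 20 (median 0.55), with 0 called in either list. In the naive-type cells alone 3 of 3519 genes passed (0.0853%), of which 2 gene models rose (0.0568%), Gm20275 and Gm42418, and 1 gene fell (0.0284%). That gene was the early response gene Junb, which fell by 1.01 on the log2 scale (edgeR adjusted p = 0.00498). In effector-memory-type cells Junb had -0.40 ± 0.25 (adjusted p = 0.744), but the interaction of 0.61 ± 0.31 did not pass (adjusted p = 0.516), so a difference in Junb between the cell types was not shown.

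Rpl6, of the large subunit, had the largest ribosomal interaction (0.92 ± 0.15, adjusted p = 0.00212). In effector-memory-type cells it stood at 2201, 2598, 2512, 2020 and 2483 CPM in gonadotropin mice 1 to 5, and at 1644, 1629, 2266, 1695 and 1543 CPM in untreated mice 1 to 5. In naive-type cells it averaged 2801 ± 290 CPM in gonadotropin and 3089 ± 264 CPM in untreated mice (SD, n = 5 each). Of the 10 mice, untreated mouse 3, with 4 cells, was the untreated one inside the gonadotropin range in effector-memory-type cells. Eef1a1, the elongation factor that brings transfer RNA to the ribosome, had an interaction of 0.70 ± 0.12 (adjusted p = 0.00298). The separate fits gave 0.36 in effector-memory-type cells (7 mice) and -0.23 in naive-type cells (10 mice). These fits hold unlike mice, so their values do not add up to the interaction. The cytoplasmic actin gene Actg1 had 1.0 ± 0.25 (adjusted p = 0.0400), with 1402 ± 351 CPM in gonadotropin and 971 ± 165 CPM in untreated effector-memory-type cells, and 603 ± 112 CPM in gonadotropin and 737 ± 107 CPM in untreated naive-type cells. Smim11, which encodes a small membrane protein, had 2.25 ± 0.55 (adjusted p = 0.0385). Its level was low, with 1 to 17 UMIs per mouse in effector-memory-type cells. These were 89.0 ± 39.7 CPM in gonadotropin and 41.4 ± 10.7 CPM in untreated mice. Gonadotropin mouse 5, with 22.6 CPM, lay below every untreated mouse (30.8 to 58.2 CPM). Naive-type cells had 37.9 ± 10.6 CPM in gonadotropin and 72.9 ± 20.7 CPM in untreated mice. With no filter on low counts Smim11 did not pass (edgeR adjusted p = 0.0570). With all 10 mice these 3 genes still passed, with adjusted p of 0.0227, 0.0316 and 0.0316 by edgeR. Leaving out 1 of the 7 mice ended the call of Eef1a1 only without untreated mouse 5 (adjusted p = 0.145). Actg1 kept its call only without gonadotropin mouse 2 or 4, and Smim11 only without gonadotropin mouse 1. With the innate-like cells left out and all mice kept, Eef1a1 had 0.38 (adjusted p = 0.591) and Actg1 had 0.84 (adjusted p = 0.290), against 0.53 and 0.93 with all 10 mice and all cells. Smim11 was not among the genes tested with the innate-like cells left out.

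The start regions of Rps12 and of the 4 ribosomal protein genes with the smallest interaction p among those with an entry in the RefSeq promoter table (GRCm38.p6) are printed because all 5 passed the threshold of the interaction with the same sign. Each runs from 70 bases before to 30 bases from the start that the table gives, 5′ to 3′ on the gene's strand, and capitals mark CCGGAAG or its reverse complement, the core that ETS-family factors such as GABP bind.
Rps12, chr10:23787180-23787279, minus strand: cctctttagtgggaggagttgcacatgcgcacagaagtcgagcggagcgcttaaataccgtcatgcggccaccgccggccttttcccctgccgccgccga
Rpl6, chr5:121204431-121204530, plus strand: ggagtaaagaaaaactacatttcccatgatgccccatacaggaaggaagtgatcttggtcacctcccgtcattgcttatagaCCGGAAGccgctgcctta
Rps7, chr12:28635924-28636023, minus strand: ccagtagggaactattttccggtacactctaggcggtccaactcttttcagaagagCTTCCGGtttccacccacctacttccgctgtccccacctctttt
Rpl38, chr11:114668510-114668609, plus strand: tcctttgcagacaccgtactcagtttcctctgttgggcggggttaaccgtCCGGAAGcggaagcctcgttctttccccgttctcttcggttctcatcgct
Rpl13, chr8:123102280-123102379, plus strand: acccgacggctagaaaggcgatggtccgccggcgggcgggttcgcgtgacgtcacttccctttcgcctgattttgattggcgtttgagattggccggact
The letters CCGGAAG, on either strand, were in the 300 bases around the start (250 before, 50 after) of 2683 of 27025 genes in the table (9.93%), of 25 of the 61 ribosomal protein genes of the fit that had an entry (41.0%), and of 11 of the 24 called ones with an entry (45.8%). Rps12 and Rpl13 have no match in the printed stretch. The count describes the family's promoters and not these cells.

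The 6 negative interactions were Ctla4, Ikzf2, Tmlhe, Spidr, Dnah8 and Foxp1. Ikzf2 encodes Helios and Ctla4 an inhibitory receptor, both abundant in regulatory T cells. Ikzf2 had an interaction of -3.05 ± 0.59 (adjusted p = 0.00828). In effector-memory-type cells it stood at 173, 353, 72.5, 173 and 655 CPM in gonadotropin mice 1 to 5, and at 349, 326, 0, 249 and 442 CPM in untreated mice 1 to 5. In naive-type cells the values were 29.4, 145, 91.3, 180 and 0 CPM in gonadotropin mice, and 8.73, 0, 0, 0 and 67.9 CPM in untreated mice. The groups overlapped in both cell types, and the naive-type cells of 3 untreated mice were at 0.

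Ctla4 had an interaction of -3.16 ± 0.69 (adjusted p = 0.0160). Its effector-memory-type levels were 37.1, 22.8, 36.3, 35.9 and 339 CPM in gonadotropin mice 1 to 5, and 401, 46.6, 110, 158 and 135 CPM in untreated mice 1 to 5. With all 10 mice the interaction was -2.16 for Ctla4 (adjusted p = 0.122) and -2.61 for Ikzf2 (adjusted p = 0.0931), so neither passed. Leaving out 1 of the 7 mice gave -3.80 to -2.08 for Ctla4, with the call lost without gonadotropin mouse 3 or 4 or untreated mouse 1 or 5, and -2.08 (adjusted p = 0.380) without untreated mouse 1. For Ikzf2 it gave -4.94 to -2.58, the first without untreated mouse 5, and the call was lost without gonadotropin mouse 4 (adjusted p = 0.0855). The summed Il2ra, Ctla4 and Ikzf2 level in effector-memory-type cells ranged from 154 to 1016 CPM in gonadotropin mice and from 110 to 801 CPM in untreated mice, and the part of Foxp3-negative regulatory cells in these interactions was not tested. Foxp1, a factor that keeps T cells quiescent, had -0.77 ± 0.20 (adjusted p = 0.0451), and Tmlhe, Spidr and Dnah8 had -2.46, -2.30 and -2.02, at levels of at most 236 CPM in any mouse and either cell type. With all 10 mice none of these 4 passed, with adjusted p of 0.0531 for Foxp1, 0.112 for Tmlhe, 0.105 for Spidr and 0.125 for Dnah8 by edgeR. Tmlhe lost its call without any 1 of the 7 mice, Foxp1 kept it only without gonadotropin mouse 1, Spidr only without untreated mouse 1, and Dnah8 only without gonadotropin mouse 1 or untreated mouse 1. Without untreated mouse 5 Spidr had -1.52 (adjusted p = 0.580).

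The interaction count moved most without untreated mouse 2 or 5. It was 5 without untreated mouse 2, 1 without untreated mouse 5, 11 without gonadotropin mouse 3, 14 without gonadotropin mouse 4, 27 without gonadotropin mouse 2 and 65 without gonadotropin mouse 1. With all 10 mice it was 29 of 2869 genes, and with the same mice and the innate-like cells left out, which also leaves fewer cells, it was 0 of 2542 genes by edgeR, with 193 at an unadjusted p under 0.05. All 81 ribosomal protein genes had positive values in both of these fits (median 0.43 with and 0.36 without the innate-like cells). The share of long genes moved beside it: genes of at least 100 kb made up 15.01 ± 1.14% of UMIs in gonadotropin and 15.7 ± 0.48% in untreated effector-memory-type cells, and 14.6 ± 0.69% in gonadotropin and 12.8 ± 0.39% in untreated naive-type cells. Its part in the result was not tested.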

How the data were processed

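Single-cell RNA of ovarian CD45+ cells was used as deposited: counts, whole UMIs per gene and barcode for 32285 genes, left without normalization by the authors. Cell Ranger, bcl2fastq and Seurat and the build mm10 are listed, without versions, in the submitters' processing notes. Hashtag calls and mouse numbers come from the cell table deposited by the authors, and 6 further columns of per-cell values in it were not used. Hashtag doublets and negatives were left out. Scrublet was run as a check only.

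The mouse was the replicate. UMIs of gated cells were summed per mouse, and mice with at least 10 such cells entered an edgeR 4.0.16 quasi-likelihood test, after filterByExpr and with TMM factors, with Benjamini-Hochberg adjustment over all genes tested and a threshold of 0.05. Differences between cell types were tested as an interaction of cell type and treatment with the mouse as a term. CPM printed are UMIs of the summed cells scaled by their plain total. For shares, mice were permuted between the groups (exact, two-sided). DESeq2 1.42.0 was an alternative, and the fits were tested on simulated data. Other tools were R 4.3.3 and scanpy 1.11.5.

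The gate, the 23 gene lists and the tests were chosen with earlier results of these data known. Named genes passed the threshold and averaged log2 CPM 5 or more, together with list members. In the effector-memory comparison they also did not overlap between groups (up to 15 in each direction). For the interaction (up to 5 in each direction) overlap was allowed. Gene models, mitochondrial, ribosomal protein and receptor segment genes stood outside these rules, and the ribosomal list, Rps12 and Rpl6 were chosen after their values were seen. The 19 genes of the gate were described without a test. Gene positions and promoters are those of RefSeq on GRCm38.p6, matched by symbol. The depth per mouse limits precision, and no p-value here separates treatment from library. A few genes are not reported here.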

Additional observations from a re-analysis of the deposited data

Results flagged for a closer look

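In the main fit, 43 genes passed the test of a different response to gonadotropin in effector-memory-type and naive-type CD4 T cells (edgeR interaction). Treatment and library cannot be told apart in this result. The count was 5 without untreated mouse 2, 1 without untreated mouse 5 and 65 without gonadotropin mouse 1. With all 10 mice it was 29. With all mice but no innate-like cells, which also left fewer cells, it was 0 of 2542 genes. Outside the ribosomal proteins the positive interactions were 0.70 for Eef1a1, 1.0 for Actg1 and 2.25 for Smim11 on the log2 scale. The negative ones were -3.16 for Ctla4, -3.05 for Ikzf2, -2.02 for Dnah8, -2.46 for Tmlhe and -2.30 for Spidr, and Foxp1 had -0.77. With all 10 mice Eef1a1, Actg1 and Smim11 still passed, and the negative ones did not. By edgeR the adjusted p was then 0.0931 for Ikzf2, 0.112 for Tmlhe, 0.105 for Spidr and 0.0531 for Foxp1. Ctla4 and Dnah8 had 0.122 and 0.125.

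A single mouse stood apart from the other 4 of its group in 2 of 30 groups of values examined. Both were of genes picked from fits that left that mouse out, so no chance rate can be set beside the count. Gonadotropin mouse 5, with 7 cells in the gate, had 339 CPM of Ctla4 (15 UMIs) in effector-memory-type cells, against 22.8 to 37.1 CPM in the other gonadotropin mice. The same mouse had 203 CPM of Dnah8 (9 UMIs), against 34.2 to 71.7 CPM in the others. It was below the minimum of 10 cells and was not in the main fits. With it and the other small mice included, the interaction of Ctla4 was -2.16 (adjusted p = 0.122) and that of Dnah8 -1.61 (adjusted p = 0.125).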

How the results depend on the processing

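Of 264 recomputed values, 158 kept their direction and call or, for counts, stayed within 1.5 times. Of the rest, 87 no longer passed, 18 counts moved by over 1.5 times, and 1 share came to pass (without untreated mouse 2). Among values with a direction, 0 changed it. A minimum of 1000 genes per cell and the removal of scrublet calls took out none of the gated CD4 T cells. Their gene results repeat the main ones and are no check, but the 158 include them. The 158 also include share differences that passed in neither setting. The count of 3 called genes among 1993 became 34 of 12643 with no filter on low counts (12 higher, 22 lower, all 3 included). It was 1 of 348 after thinning to 2000 UMIs per cell and 1 of 2005 without the cell richest in Ccl5. With all 10 mice it was 2 of 1571, and with all mice but no innate-like cells 0 of 883. The settings thus differ in the genes tested, and the counts alone do not compare. Leaving out 1 mouse gave 0 to 4, with 1792 to 2421 genes tested. The interaction count of 43 among 3451 became 29 of 2869 with all 10 mice and 0 of 2542 with all mice but no innate-like cells. Without 1 mouse it was 1 to 65, with 2696 to 4189 genes tested. Leaving out innate-like cells also lowered the number of cells and of genes tested. For the other settings the cause was not tested. Share differences ran from 0.399 to 1.08 points of kept cells and from 6.31 to 11.4 points of Foxp3-negative CD4 T cells without 1 mouse. Mouse numbers follow the hashtags. Deviations of same-numbered mice had correlations from -0.04 to 0.12, and 2 of 5 were best with their own number. With so few cells per mouse these correlations cannot decide whether the mice were paired, and no pairing was assumed. With the replicate number as a block, 0 genes were called (75 at an unadjusted p under 0.05). The planned minimum of 20 cells per mouse, and the exclusion of innate-like cells at 10 cells per mouse, left too few mice to be run. All mice, innate-like cells left out with all mice, the cell richest in Ccl5 and scaling without ribosomal genes were chosen after seeing the data.

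Precision is limited by 109 cells, 4 to 21 per mouse, and by 7 mice in the fits. One library per group means that treatment, staining and library cannot be told apart.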
